A study of Homo sapiens with 6 samples.

Results

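Long intergenic non-coding RNAs expressed in esophageal squamous cell carcinoma cells were compared between KYSE70 cells and their NRF2null derivative. The group held every gene named LINC followed by a number whose mean normalized count over the 6 libraries was at least 50, which left 104 of the 1871 LINC symbols and of the 58884 genes in the table. The members were thus selected on their measured mean level, from the same libraries that the comparison uses. A LINC number is given to a long non-coding gene that lies between coding genes and has no better name, so the group was defined by naming and level and not by function.

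KYSE70 is a human cell line established from an esophageal squamous cell carcinoma (ESCC) and has a mutant NFE2L2 gene, which encodes the stress-responsive transcription factor NRF2. NRF2null-KYSE70 was derived from KYSE70 by CRISPR-Cas9 cutting in exon 2 of NFE2L2 and expanded from a single clone, so the lines share the KYSE70 background. RNA from untreated cells of each line was sequenced in 3 libraries. The comparison was therefore of 1 clone with its parental line, and the study describes a faint residual NRF2 band in the clone.

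Long intergenic non-coding RNAs are transcribed, spliced and often polyadenylated like messenger RNAs, but they are not translated into known proteins. Most are expressed at low levels and in few cell types. Some act in the nucleus on nearby genes or on chromatin, others bind proteins or microRNAs in the cytoplasm, and many have no known role. NRF2 activates its target genes through the antioxidant response element, which it binds together with a small MAF protein.

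The libraries held between 52072801 and 63975313 reads in genes. NFE2L2 itself was measured at 9839, 9906 and 10039.8 normalized counts in KYSE70 and at 5803, 6041 and 6434 in NRF2null-KYSE70 (log2 fold change -0.71, SE 0.0495, adjusted p = 9.37e-08, limma). The reads of an edited gene do not show whether its protein is made. A list of 44 core NRF2 targets was written from general knowledge, but with earlier results of these data known. Of these, 17 were lower and 2 higher past both thresholds used below. Among all genes tested 7.43% were lower and 7.23% higher past both. The squamous markers KRT5, KRT6A, KRT14, KRT17, TP63, SOX2, PERP and DSG3 summed to 323640 to 330060 normalized counts per library in KYSE70 and to 237812 to 248129 in NRF2null-KYSE70. KRT5 made up most of this sum, and by adjusted p 4 of the 8 were lower and 4 higher, with KRT14 higher past both thresholds (log2 fold change 1.74, limma, adjusted p = 3.16e-04). The 6 columnar markers summed to 24.5 or less in every library, with TFF3 and CDX2 at 0. The 4 fibroblast markers summed to 1172 to 1333 in KYSE70 and 478 to 621 in NRF2null-KYSE70, nearly all of it COL1A1, with DCN and COL1A2 at 0. The leukocyte marker PTPRC was at 0, 0 and 1.05 in KYSE70 and 42.6, 40.2 and 47.9 in NRF2null-KYSE70, where the leukocyte markers CD3E and LYZ were at 1.01 or less. The part of these marker differences in the LINC results was not tested.

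LINC RNAs made up a small part of the transcriptome. The 104 members took 0.0685% to 0.0717% of the normalized counts of a library, and the share was similar in both lines. Their mean levels ran from 53.6 to 3872 normalized counts, with a median of 168, against a median of 2104 over protein-coding genes held to the same minimum. The 10 most abundant members held 46.7% of the members' total. By the GENCODE v44 annotation, 96 members were long non-coding genes, 7 were transcribed pseudogenes and 1 (LINC00634) is now annotated as coding. They were spread over 22 chromosomes, with a median of 3 exons in the canonical transcript. Exons of 47 members overlapped those of another gene, including 16 that overlapped a coding exon. Whether the counting used strand was not stated, so reads in the exon bases that such a member shares with its partner cannot be told apart.

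Between the lines, 32 members (30.8%) differed past both thresholds, an adjusted p under 0.05 in limma and a change of at least 2-fold. Among all 15994 genes tested the share was 14.7%. Of the members 21 (20.2%) were lower in NRF2null-KYSE70, against 7.43% of all genes tested, and 11 (10.6%) were higher, against 7.23%. The median log2 fold change of the members, as NRF2null-KYSE70 over KYSE70, was -0.24. It was -0.18 over other long non-coding RNA genes with the same minimum and -0.01 over all genes tested. The median size of the change, without its sign, was 0.59 on the log2 scale for the members, 0.47 for other long non-coding RNA genes with the same minimum and 0.30 for protein-coding genes. By adjusted p alone 66 members (63.5%) passed, 26 higher and 40 lower, against 57.6% of all genes tested. The 72 members not past both thresholds thus held 34 that passed the adjusted p with a smaller change and 38 that did not pass it, and their log2 fold changes ran from -0.99 to 0.95. In 70 members (67.3%) every library of one line lay above every library of the other, against 63.4% of all genes tested. These shares by adjusted p alone and by overlap were near the background.

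The share past both thresholds moved with the level of a gene. Of all genes with a mean of at least 50, 11.6% passed both thresholds, with 11% of the protein-coding genes and 19.2% of the 801 other long non-coding RNA genes. Between a mean of 50 and 500, where most members lie, 29 of 83 members (34.9%) passed, compared with 25.1% of all 3375 genes at this level. From 50 to 100 normalized counts, 36.7% of 30 members and 34.1% of 525 protein-coding genes passed. From 100 to 200 the order was the other way, with 31.0% of 29 members and 35.5% of 628 protein-coding genes. From 200 to 500, the shares were 37.5% of 24 members and 21.5% of 1071 protein-coding genes. Between 500 and 1000, 2 of 12 members (16.7%) passed, against 11.9% of 1389 protein-coding genes and 5.48% of 73 other long non-coding RNA genes. Of the 9 members at 1000 or more, 1 passed (11.1%). At that level 5.98% of 7992 protein-coding genes and 13.6% of 59 other long non-coding RNA genes passed. In 18 members the line with the lower level was under 50, so that they met the minimum through the other line, and 15 of these passed. Such members differ between the lines by the level rule itself, so their passing is partly built in. Of all 13004 genes with a mean of at least 50, 1511 passed, and of the 12431 with at least 50 in each line, 1112 passed. Of the 86 members with at least 50 in each line, 17 passed, 5 higher and 12 lower, against 8.95% of all 12431 genes with at least 50 in each line. No test was made of the list as a whole.

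**Figure D1:**
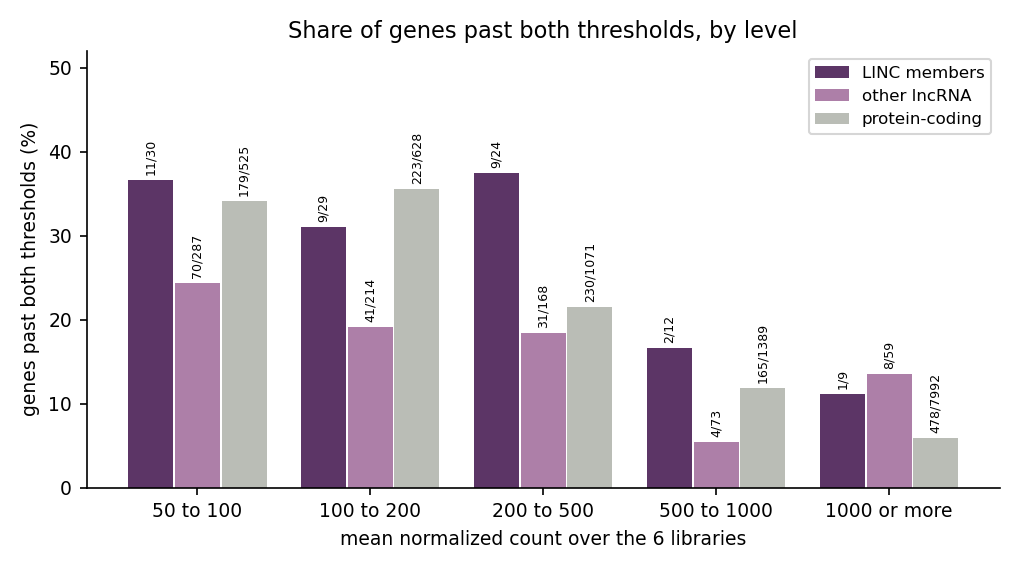
Share of genes past both thresholds (vertical axis, %) by mean normalized count over the 6 libraries (horizontal axis), for LINC members, other long non-coding RNA genes and protein-coding genes, with the number passing and the number tested over each bar. In all 3 kinds of gene the bars were lower at 1000 or more than at 50 to 100, and the LINC bar was below the protein-coding bar from 100 to 200 (31.0% and 35.5%) and above it from 200 to 500 (37.5% and 21.5%).

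The members that fell furthest were LINC00662, LINC01508, LINC02561, LINC00942 and LINC00519. Of these, LINC00662, LINC02561 and LINC00519 had a mean under 50 in NRF2null-KYSE70 and met the level rule only through KYSE70. LINC00662 (ENSG00000261824, chr19:27681072-27794005, hg38, minus strand), an RNA studied as a growth promoter in several cancers, was at 157, 109 and 104 normalized counts in KYSE70. It was at 0, 0 and 1.14 in NRF2null-KYSE70, which is 1 read in all 3 libraries together. Taking 3 reads in each library as the floor of detection, the level of LINC00662 in NRF2null-KYSE70 was at least 39.4-fold lower than in KYSE70 (limma, adjusted p = 3.44e-07). Its gene lies near the centromere of chromosome 19, and the nearest tested coding gene, UQCRFS1, was 1411 kb away and went from 5612 to 5183 (log2 fold change -0.12, adjusted p = 0.131). In bulk RNA, a loss of cells that express an RNA and a loss of RNA per cell cannot be told apart.

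LINC01508 (ENSG00000231107, chr9:90300885-90433566, minus strand) was measured at 689, 708 and 789 normalized counts in KYSE70 and at 53.8, 46.1 and 71.9 in NRF2null-KYSE70. The groups were far apart, at 729 ± 53.0 and 57.3 ± 13.3 (SD, n = 3), a 12.7-fold difference of means (log2 fold change -3.67, SE 0.174, adjusted p = 2.64e-09, limma). Its nearest coding neighbour DIRAS2, a small GTPase of the Ras family, lies 176 kb away and fell with it, from 786 to 22.6 (log2 fold change -5.31, adjusted p = 2.76e-07). LINC00942 (ENSG00000249628, chr12:1500525-1504424, plus strand), described in breast cancer as a partner of an RNA methylation enzyme, was at 785, 708 and 713 in KYSE70 and 68.0, 73.5 and 107 in NRF2null-KYSE70. All 3 NRF2null-KYSE70 libraries lay far below those of KYSE70 (log2 fold change -3.16, SE 0.170, adjusted p = 8.55e-09, limma). ERC1, a scaffold protein gene 4.59 kb away on the same strand, had means of 5956 and 5970.0 (log2 fold change -0.00535, adjusted p = 0.966).

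LINC02561 (ENSG00000224034, chr10:5266033-5271236, minus strand) was at 172, 216 and 180.3 normalized counts in KYSE70 and at 18.3, 24.5 and 18.3 in NRF2null-KYSE70 (log2 fold change -3.16, SE 0.246, adjusted p = 2.47e-07, limma). Its nearest tested coding gene TUBAL3 had a log2 fold change of -0.23 (adjusted p = 0.32). LINC02561 lies 158 kb from AKR1C3, an aldo-keto reductase gene on the core NRF2 target list, and no other member was nearer to a gene of that list. No member lay within 100 kb of a core NRF2 target or of NFE2L2. LINC00519 (ENSG00000258955, chr14:51304108-51331918, minus strand) was at 235, 312 and 209 in KYSE70 and 30.4, 34.3 and 40.0 in NRF2null-KYSE70, and the lines did not overlap (log2 fold change -2.80, SE 0.222, adjusted p = 2.90e-07, limma). Its nearest coding neighbour TMX1, a thioredoxin-related membrane protein, rose slightly in place of falling (log2 fold change 0.14, adjusted p = 0.0324).

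The promoters of these RNAs were searched for the letters TGACNNNGC, the core of the antioxidant response element, on both strands. The window ran from 250 bases before to 50 bases after the RefSeq start (GRCh38.p14), and 74 of the 104 members had one. The letters were found in 18 of these 74 windows (24.3%) and in 13.6% of all 27305 promoter windows. Among members that fell past both thresholds 6 of 16 windows held them, among those that rose 1 of 6, and among the others 11 of 52. The windows of LINC00662 and LINC02561 held no match. The windows of the other members of these 5 largest falls held 1 match each, and they are printed 5′ to 3′ along the gene's strand, with the match in capitals, to show where the letters lie. They are LINC01508 (chr9:90433440-90433739, minus strand), LINC00942 (chr12:1500241-1500540, plus strand) and LINC00519 (chr14:51328336-51328635, minus strand). The first base of the match lies 1, 125 and 12 bases before the RefSeq start, in this order. In LINC01508 the rest of the match lies past that start. The GENCODE canonical start of LINC01508 lies 77 bases upstream of the RefSeq start, so by GENCODE the whole match is inside the gene.
LINC01508: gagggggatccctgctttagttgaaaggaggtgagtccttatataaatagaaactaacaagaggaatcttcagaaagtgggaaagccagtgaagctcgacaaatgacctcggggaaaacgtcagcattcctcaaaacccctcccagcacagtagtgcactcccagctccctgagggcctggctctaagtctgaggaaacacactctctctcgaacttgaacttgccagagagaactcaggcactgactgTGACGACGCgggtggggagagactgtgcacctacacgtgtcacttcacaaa
LINC00942: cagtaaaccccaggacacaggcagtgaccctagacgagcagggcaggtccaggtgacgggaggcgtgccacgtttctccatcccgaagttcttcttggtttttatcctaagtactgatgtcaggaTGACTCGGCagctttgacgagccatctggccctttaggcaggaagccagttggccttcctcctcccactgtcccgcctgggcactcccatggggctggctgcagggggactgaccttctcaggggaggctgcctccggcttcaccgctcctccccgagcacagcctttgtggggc
LINC00519: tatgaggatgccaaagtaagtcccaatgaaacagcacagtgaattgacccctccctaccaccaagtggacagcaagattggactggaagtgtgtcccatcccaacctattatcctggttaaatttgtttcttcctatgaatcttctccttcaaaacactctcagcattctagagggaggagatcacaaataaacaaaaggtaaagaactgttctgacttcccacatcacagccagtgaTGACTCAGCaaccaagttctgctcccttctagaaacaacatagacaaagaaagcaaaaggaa
In LINC00519 the same bases also read TGANTCA, the pattern of AP-1 factors, which 5 of the 74 member windows (6.76%) and 7.76% of all windows held. The RefSeq start used for LINC00519 lies 3533 bases from that of the GENCODE canonical transcript. Other windows with a TGACNNNGC match also had distant starts, among them LINC01752, which fell (56141 bases), LINC02542 (230970) and LINC02210 (12720). The counts of matches thus rest in part on starts that the annotations place differently. A match of letters is a description, and binding was not measured. CCAAT was found in 39 member windows (52.7%) and in 35.7% of all windows, and TATAAA in 7 (9.46%) and in 12% of all windows. The median number of CpG dinucleotides in a window was 6.5 in the 16 members that fell, 3.5 in the 6 that rose and 20.5 in the 52 others, with 14 over all promoters.

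The next falls were smaller. Among them LINC01138, LINC01752, LINC00235, LINC01060, LINC01137 and LINC01967 had a mean under 50 in NRF2null-KYSE70 and met the level rule only through KYSE70. LINC01138 (ENSG00000274020), in a repeated stretch of chromosome 1q where reads may be shared among copies, was at 94.3, 93.4 and 112 normalized counts in KYSE70 and 20.3, 31.4 and 22.8 in NRF2null-KYSE70 (log2 fold change -1.98, SE 0.275, adjusted p = 4.60e-05, limma). LINC01752 (ENSG00000224961) was at 106, 119.7 and 162 in KYSE70 and 18.3, 35.3 and 47.9 in NRF2null-KYSE70 (log2 fold change -1.98, SE 0.335, adjusted p = 2.40e-04, limma). Its chromosome arm 20p was lower as a whole, with a median log2 fold change of -0.77 over coding genes, and the change of LINC01752 relative to its arm was -1.21. JAG1, a Notch ligand gene 22.9 kb from it, had a log2 fold change of -0.09 (adjusted p = 0.264). LINC02495 (ENSG00000249896), annotated as a transcribed pseudogene, had a wide spread among libraries, with 224, 210.4 and 127 in KYSE70 and 52.7, 91.2 and 29.7 in NRF2null-KYSE70. Its lowest KYSE70 library still lay above its highest NRF2null-KYSE70 library (log2 fold change -1.77, SE 0.353, adjusted p = 8.40e-04, limma).

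LINC01133, described as a restraint on the epithelial to mesenchymal transition, was at 122, 145 and 119 normalized counts in KYSE70 and 52.7, 56.9 and 69.6 in NRF2null-KYSE70 (log2 fold change -1.10, SE 0.212, adjusted p = 6.70e-04, limma). Its neighbour IGSF9, an immunoglobulin superfamily gene 12.4 kb away, fell from 179.7 to 73.5 (log2 fold change -1.34, adjusted p = 4.03e-04). Of LINC00235 and LINC01060, both of which fell, the means went from 81.5 to 28.7 and from 82.3 to 30.0 normalized counts. On arm 16p, whose median log2 fold change was -0.49, LINC00235 went from -1.44 to -0.96 once the arm was subtracted and no longer passed. The other 10 members that fell past both thresholds had log2 fold changes from -1.54 (LINC01963) to -1.01 (LINC00920). They are named here after their values were seen and included LINC01137, LINC01967, LINC01484, LINC00638, LINC01451, LINC02593, LINC01145, LINC01980 and LINC00920. LINC01967 and LINC01980, with falls of -1.43 and -1.02, overlap in part on opposite strands on chromosome 3p. Without strand, reads in the exon bases that they share cannot be told apart.

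**Figure D2:**
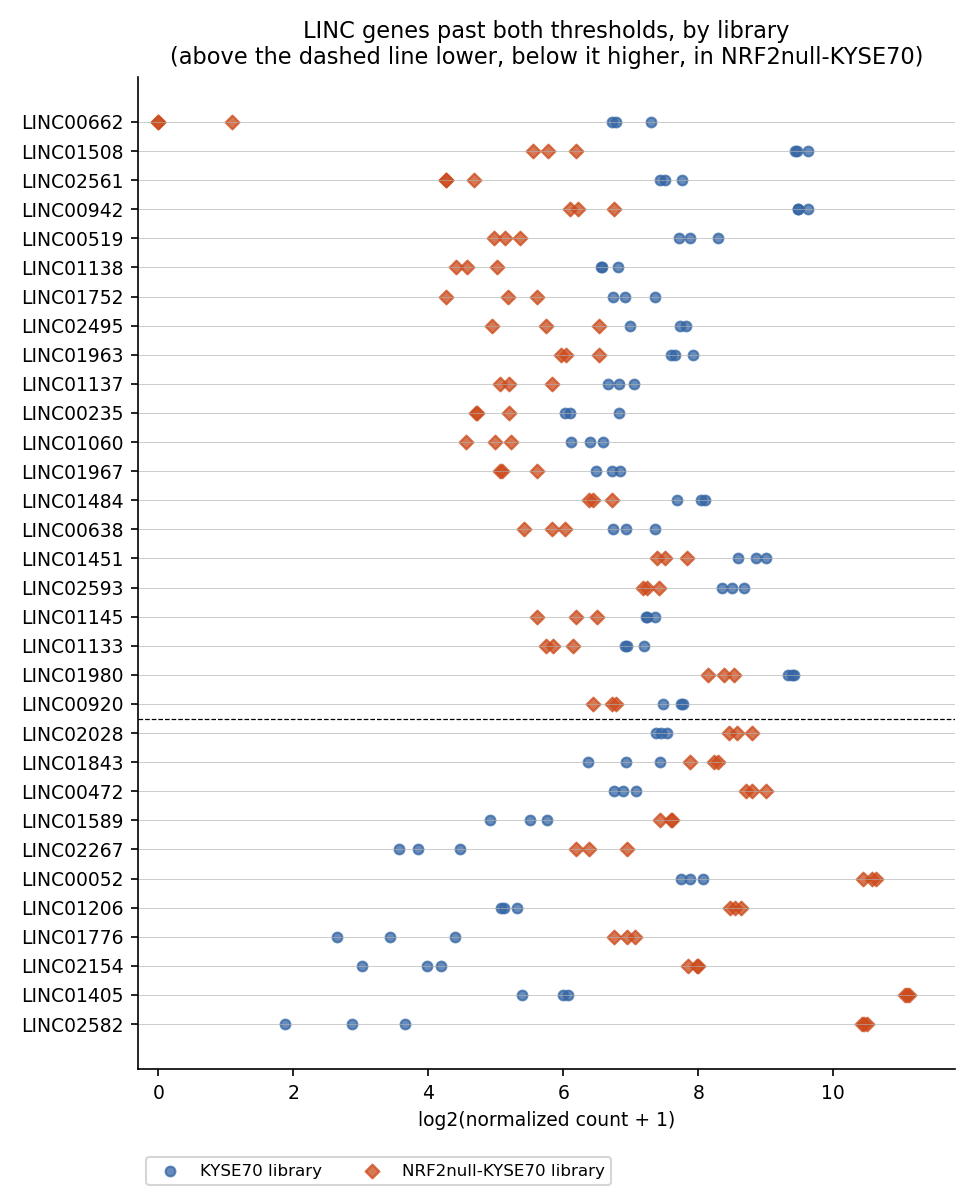
Level of each of the 32 members past both thresholds in each library, as log2(normalized count + 1) on the horizontal axis, with KYSE70 libraries as circles and NRF2null-KYSE70 libraries as diamonds. The 21 members that fell are above the dashed line and the 11 that rose below it, and in none of them did the 2 lines overlap.

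Several of the members that rose furthest had few reads in KYSE70. LINC02582, LINC02154, LINC01776, LINC01206, LINC02267 and LINC01589 had a mean under 50 in KYSE70 and met the level rule only through NRF2null-KYSE70. LINC02582 (ENSG00000261780, chr18:73324941-73349879, plus strand) was at 2.67, 6.35 and 11.6 normalized counts in KYSE70, which was 21 reads in the 3 libraries together. In NRF2null-KYSE70 it was at 1398, 1448 and 1369.9. The NRF2null-KYSE70 libraries were close to each other, at 1405 ± 39.8 (SD, n = 3), and the rise was the largest of any member (log2 fold change 7.65, SE 0.347, adjusted p = 1.80e-09, limma). The tested coding gene nearest to it, FBXO15, was 723 kb away, with means of 38.5 in KYSE70 and 33.3 in NRF2null-KYSE70 (adjusted p = 0.633).

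LINC01405 (ENSG00000185847, chr12:110934590-110959093, plus strand) was at 63.1, 40.8 and 66.4 normalized counts in KYSE70 and 2128, 2226 and 2192 in NRF2null-KYSE70. This placed it among the 10 most abundant members, with a 38.4-fold difference of means (log2 fold change 5.27, SE 0.164, adjusted p = 5.79e-11, limma). MYL2, a muscle myosin light chain gene 13.1 kb away, rose from 16.3 to 73.2 (log2 fold change 2.25, adjusted p = 6.63e-04). The arm 12q as a whole had a median log2 fold change of -0.38. LINC02154 (ENSG00000235385, chromosome X) was at 7.11, 17.2 and 14.8 in KYSE70 and 254, 228 and 251 in NRF2null-KYSE70 (log2 fold change 4.21, SE 0.315, adjusted p = 1.70e-07, limma). Its neighbour EGFL6, 266 kb away, went the other way (log2 fold change -0.48, adjusted p = 4.60e-04).

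LINC01776 and LINC00052 rose together with the nearest coding gene. LINC01776 (ENSG00000226053, chr1:98210747-98272658, plus strand) was at 9.78, 19.96 and 5.27 normalized counts in KYSE70 and 106, 122 and 132 in NRF2null-KYSE70 (log2 fold change 3.43, SE 0.411, adjusted p = 1.30e-05, limma). DPYD, which encodes the enzyme that starts the breakdown of pyrimidines and of the drug 5-fluorouracil, lies 216 kb from it and rose from 1141 to 4552 (log2 fold change 2.00, adjusted p = 3.82e-10). LINC00052 (ENSG00000259527, chr15:87576929-87579866, plus strand) was at 235, 267 and 213 in KYSE70 and at 1529.5, 1593 and 1392 in NRF2null-KYSE70, a 6.32-fold difference of means (log2 fold change 2.66, SE 0.105, adjusted p = 5.13e-10, limma). NTRK3, a neurotrophin receptor gene 279.9 kb away, rose from 15.04 to 76.6 (log2 fold change 2.33, adjusted p = 1.51e-04).

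LINC01206 (ENSG00000242512, chr3:181952343-182035644, plus strand) was at 33.8, 39.0 and 32.7 normalized counts in KYSE70 and at 395, 374 and 355 in NRF2null-KYSE70 (log2 fold change 3.38, SE 0.179, adjusted p = 7.46e-09, limma). Its nearest tested coding gene was SOX2, a transcription factor of squamous epithelium, 238 kb away. SOX2 changed little, with 18186, 17976 and 18111 in KYSE70 and 20424, 19133 and 20647 in NRF2null-KYSE70 (log2 fold change 0.15, adjusted p = 0.0132). LINC02267 was at 13.3, 10.9 and 21.1 in KYSE70 and 122, 82.4 and 71.9 in NRF2null-KYSE70 (log2 fold change 2.54, SE 0.349, adjusted p = 4.16e-05, limma). LINC01589 was at 53.4, 29.0 and 44.3 in KYSE70 and 172, 192 and 195 in NRF2null-KYSE70 (log2 fold change 2.16, SE 0.244, adjusted p = 7.77e-06, limma). LINC01589 lies 3.30 kb from FBLN1, an extracellular matrix gene that went from 5808 to 4421 (log2 fold change -0.39, adjusted p = 4.34e-05). LINC00472, described as a growth restraint in breast cancer, was at 107, 117 and 134 in KYSE70 and 418, 511 and 444 in NRF2null-KYSE70 (log2 fold change 1.93, SE 0.145, adjusted p = 1.80e-07, limma). It was the only member past both thresholds with an exon overlap with a coding gene, OGFRL1, which had a log2 fold change of -0.21. The remaining members that rose, LINC01843 (1.22) and LINC02028 (1.15), are named after their values were seen.

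The most abundant LINC RNAs changed less. LINC00963, first described in the progression of prostate cancer, was at 4436, 4149.9 and 4159 normalized counts in KYSE70 and 3714, 3276 and 3498 in NRF2null-KYSE70 (log2 fold change -0.28, limma, adjusted p = 0.00114). Relative to its chromosome arm 9q, the change of LINC00963 was -0.14 and no longer passed the adjusted p (0.0602). LINC01234, studied as a microRNA sponge in gastric cancer, was at 2982, 2926 and 2935 in KYSE70 and 3780.2, 3765 and 3857 in NRF2null-KYSE70 (log2 fold change 0.37, limma, adjusted p = 3.37e-05). The lines did not overlap in LINC01234, and relative to its arm 12q the change was 0.75. LINC00667 fell from 2437 to 1857 (log2 fold change -0.39, limma, adjusted p = 2.50e-04), and its exons overlap those of ZBTB14 and of LINC00526. LINC00511, linked to stem-like growth in breast cancer, fell from 2393 to 1804 (log2 fold change -0.41, limma, adjusted p = 4.02e-04). LINC00839 fell from 1239 to 969 (log2 fold change -0.35, limma, adjusted p = 0.00218).

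LINC01503, known in squamous carcinomas as a super-enhancer RNA activated by TP63, was at 888, 1010.5 and 922 normalized counts in KYSE70 and 1125, 1156 and 1264 in NRF2null-KYSE70. Its libraries did not overlap and it rose (log2 fold change 0.33, limma, adjusted p = 0.00338). TP63 itself was at 26829, 26896 and 25297 in KYSE70 and 14222, 13826 and 13628 in NRF2null-KYSE70 (log2 fold change -0.92, limma, adjusted p = 3.63e-09). LINC00888 rose from 1065 to 1775 (log2 fold change 0.73, limma, adjusted p = 7.19e-06), and its neighbour MCF2L2, a guanine nucleotide exchange factor gene, rose from 349.9 to 789 (log2 fold change 1.18). LINC00294 rose from 749.7 to 1188 (log2 fold change 0.66, limma, adjusted p = 2.30e-05), and its exons overlap those of CSTF3 on the opposite strand. CSTF3 went from 5449 to 4377 (log2 fold change -0.32), and without strand the reads in the exon bases that LINC00294 and CSTF3 share cannot be told apart. LINC00205 had 1859, 1709 and 1738 in KYSE70 and 2234, 1908 and 1735 in NRF2null-KYSE70, the lines overlapped, and the change did not pass the test (log2 fold change 0.14, limma, adjusted p = 0.178). Without NRF2null-KYSE70 library 1 the change of LINC00205 was 0.04, and without library 3 it was 0.22 and passed the adjusted p (0.0379). Per kilobase of annotated exon, LINC01234 (279 normalized counts) and LINC00963 (275) had about the same level, and LINC00511 (75.9) was well below both. The exon length joins all annotated transcripts of a gene, 27664 bases over 107 transcripts in LINC00511 and 12110 over 17 in LINC01234. These values thus depend on how many transcripts are annotated. The value per kilobase of LINC00888 is not given, because its current pseudogene model covers 421 bases and may be shorter than the model the reads were counted on.

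**Figure D3:**
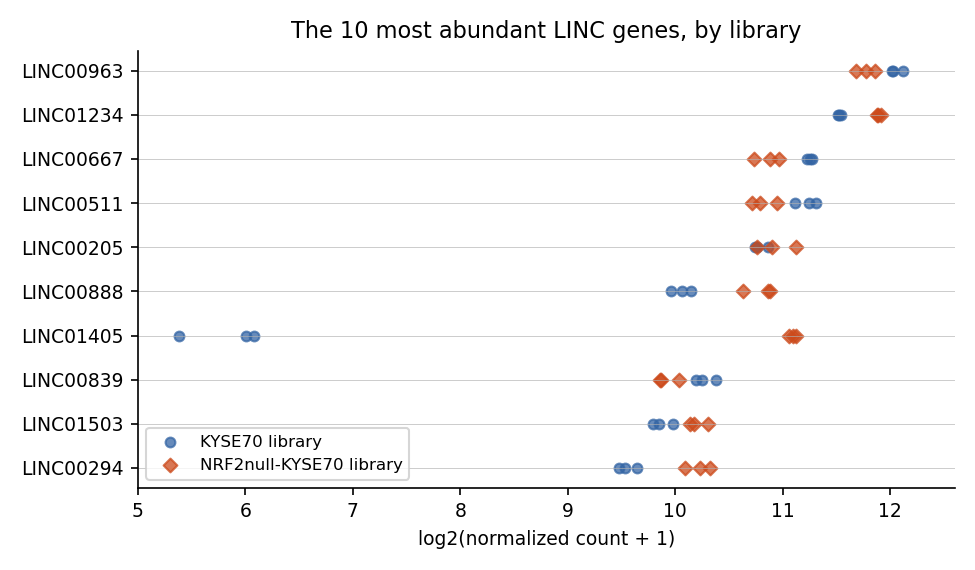
The 10 most abundant LINC RNAs, each library as log2(normalized count + 1) on the horizontal axis, with KYSE70 libraries as circles and NRF2null-KYSE70 libraries as diamonds. LINC01405 alone stood far apart between the lines (log2 fold change 5.27), and in LINC00205 the lines overlapped.

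A list of 31 LINC genes with a described role, mostly in cancer, was written from general knowledge. Of these, 27 were in the table, 19 were tested and 14 were members. By adjusted p, 8 were lower and 6 higher, and 3 in each direction also passed the fold threshold, while among all genes tested 57.6% passed the adjusted p and 14.7% both thresholds. LINC00662, LINC00942 and LINC01133 were the members of the list that fell past both thresholds. LINC00472 rose past both, and the other two that rose were under the level minimum and are not members. LINC01139, also called LINK-A and described in hypoxia signalling, fell from 282 to 178 (log2 fold change -0.66, limma, adjusted p = 0.00153). LINC00707 rose from 567 to 901 (log2 fold change 0.66, limma, adjusted p = 3.29e-04). LINC00467 had means of 470.0 and 476 and overlapping libraries (log2 fold change 0.00555, limma, adjusted p = 0.973). TRAF5, a tumour necrosis factor receptor adaptor gene 7.79 kb from LINC00467, fell from 203 to 31.5 (log2 fold change -2.65, adjusted p = 4.19e-07). LINC01116, LINC00941 and LINC01638 were at 0 in every library.

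Each member was set beside its nearest tested protein-coding gene. Of the 32 members past both thresholds, 6 (18.8%) had a coding neighbour that also passed both, and all 6 went the same way as the member. These were LINC01508 with DIRAS2, LINC01133 with IGSF9, LINC00920 with BEAN1, LINC01405 with MYL2, LINC01776 with DPYD and LINC00052 with NTRK3. Of the 72 other members, 8 (11.1%) had such a neighbour, and 5 shared its sign. The share of tested genes that passed was 14.7%, between these values. The sign was shared with the neighbour in 25 of the 32 and in 47 of the 72. Over all 104 pairs the Spearman correlation of the log2 fold changes was 0.40 and the Pearson correlation 0.31, as a description across genes measured in the same 6 libraries. A median over coding genes within 1 Mb was available for 90 members, and its correlation with the member's change was 0.10 by Pearson and 0.20 by Spearman. Of 26 members past both thresholds with such a median, 21 still changed at least 2-fold after it was subtracted.

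**Figure D4:**
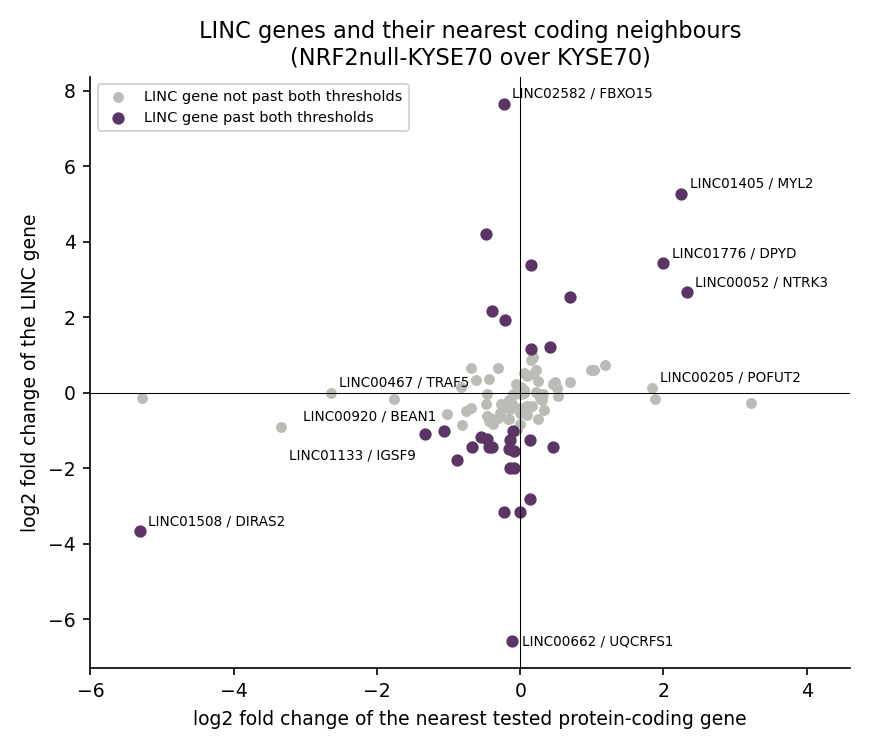
Log2 fold change of each of the 104 LINC genes (vertical axis) against that of its nearest tested protein-coding gene (horizontal axis), NRF2null-KYSE70 over KYSE70, with the 32 members past both thresholds in dark. LINC01508 (-3.67) and DIRAS2 (-5.31) both lie far below 0, whereas LINC02582 and LINC00662 lie near a neighbour change of 0.

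In 13 pairs the start of a LINC gene lay within 1000 bases of the start of a coding gene on the opposite strand, an arrangement common among non-coding RNAs that start at a coding gene's promoter. In 10 of the 13 the changes had the same sign, and in 4 both passed the adjusted p, all 4 with the same sign. The coding gene passed in 9 pairs and the LINC gene in 6, while 57.6% of all genes tested passed the adjusted p. Over all 104 members, 72 shared the sign of their nearest tested coding gene. Whether the head-to-head pairs share a sign more often than that was not tested. LINC01750 and KCND3, a potassium channel gene, moved by like amounts (-0.84 and -0.81 on the log2 scale). LINC00235 fell from 81.5 to 28.7 normalized counts and its partner CAPN15 from 4585 to 2869.6 (-1.44 and -0.68). The pair of LINC00205 and POFUT2, whose starts are 142 bases apart, differed most in that the coding gene rose from 894 to 3194 (log2 fold change 1.83, limma, adjusted p = 2.05e-10) while LINC00205 had a log2 fold change of 0.14. POFUT2 encodes a fucosyltransferase of the secretory pathway. LINC01137 fell (-1.49), and ZC3H12A, its partner and an RNA-degrading regulator of inflammation, had 164 and 144 (-0.16, adjusted p = 0.538). Pairs named here other than LINC00205 and LINC00235 were chosen after their values were seen.

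**Figure D5:**
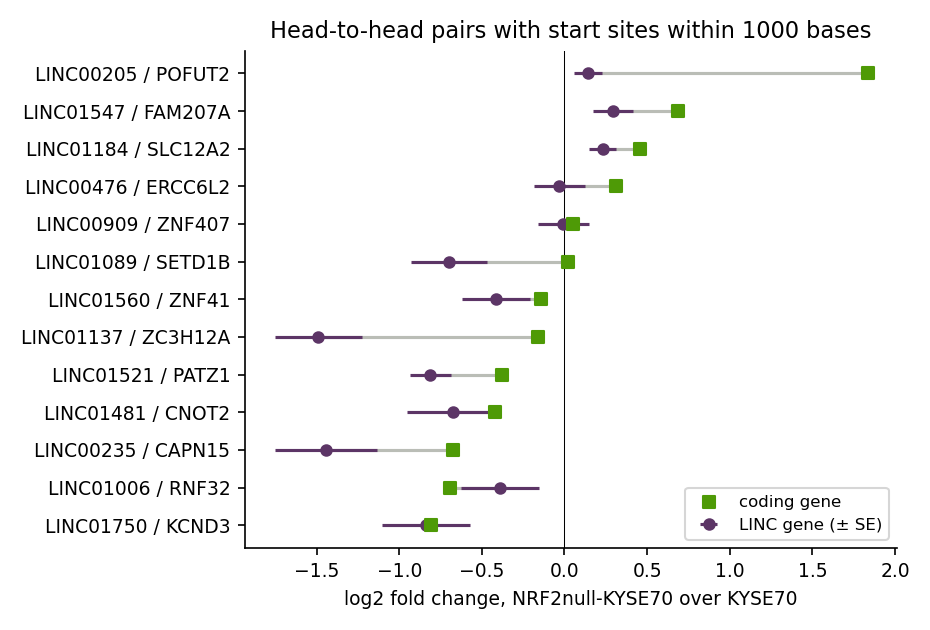
Log2 fold change, NRF2null-KYSE70 over KYSE70, of the LINC gene (circle, with bars of ± 1 SE) and of its coding partner (square) in each of the 13 head-to-head pairs. The squares and circles of LINC01750 and KCND3 lie together, and those of LINC00205 and POFUT2 lie farthest apart.

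At the edge of the level rule, the 3 members just inside were LINC01060 (mean 56.1), LINC00235 (55.1) and LINC02267 (53.6). The 3 LINC genes just outside were LINC01376 (48.9), LINC02616 (47.7) and LINC00663 (47.7).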

How the data were processed

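RNA-seq was made from 3 libraries each of KYSE70 and NRF2null-KYSE70, and the labels do not say whether the libraries came from separate cultures, so p-values measure the spread between these libraries only. The authors trimmed reads with cutadapt (1.12), aligned them to hg38 with STAR, counted reads per gene with featureCounts (1.5.1) and normalized the counts with DESeq2, per the study's methods and processing notes. The deposited values are a signal in normalized counts. Strand use and the handling of reads with several alignments are not given in the sources used here. In each library 1 read was worth 0.889 to 1.14, and 100% of the deposited values came out as whole reads within a tolerance of 0.01, so read counts could be recovered.

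Log2(normalized count + 1) was tested with limma (3.58.1, R 4.3.3, with a mean-variance trend) over 15994 genes with a mean of at least 10, with Benjamini-Hochberg adjustment over all of them. The scale understates changes of genes with few reads. The study's thresholds were used, an adjusted p below 0.05 and a log2 fold change of 1 or more in either direction. Tests were two-sided. Neighbours and biotypes came from GENCODE v44 on hg38, which matched 58472 gene identifiers, and promoters from RefSeq. The scripts were tested on simulated data. DESeq2 (1.42.0) and edgeR (4.0.16) on the recovered reads were alternatives, as were other pseudocounts, filters, scalings, member minimums, the subtraction of chromosome arm medians and leaving out each library. Named in the text are the 10 most abundant members, the 8 largest rises and 8 largest falls with no overlap between lines, members at the floor of detection or on the role list, the 3 genes on each side of the level rule, and the nearest coding gene of some of these. A marker gene on the lists is not reported here. The members and lists were chosen with earlier results of these data known.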

Additional observations from a re-analysis of the deposited data

How the results depend on the processing

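The count of 32 members past both thresholds stayed within 1.5 times under 18 of 22 alternatives, including DESeq2 (33) and edgeR (33) on the recovered reads, which called 2341 and 2350 genes in all against 2344 by limma, and it lay between 31 and 34 with any single library left out. It moved to 52 of 153 with members from a mean of 25, to 21 of 74 from a mean of 100, to 17 of 41 among members that overlap no other gene and to 66 with no fold threshold. These settings change which genes are counted or drop a threshold. The median log2 fold change of the members, -0.24, moved to -0.15 with quantile normalization, -0.31 with total scaling, -0.15 from a mean of 25, -0.034 from a mean of 100 and -0.35 without overlaps, and lay between -0.27 and -0.18 with any single library left out, the latter without NRF2null-KYSE70 library 3. Of 448 values of named members, 441 kept their direction and stayed past, or not past, both thresholds together. By adjusted p alone, LINC00963 lost significance with chromosome arm medians subtracted (-0.14) and LINC00205 gained it without NRF2null-KYSE70 library 3 (0.22). Subtracting arm medians also moved LINC01234 to 0.75 and LINC00888 to 0.45. LINC00205 reversed to -0.13 with chromosome arm medians subtracted. LINC00467, near 0, reversed to -0.0069 with TMM and -0.070 with total scaling, and lay between -0.11 and 0.12 with any single library left out, below 0 without the second library of KYSE70 (-0.03) or of NRF2null-KYSE70 (-0.11). LINC01133 (-0.99, quantile) and LINC00235 (-0.96, arm medians) lost the fold threshold, and LINC01752 moved to -1.21 on arm 20p. Fitted changes of LINC00662 ran from -9.04 to -4.56 with the pseudocount. No paired analysis was possible because the columns of the table give the line but not which numbered sample they hold. The median coefficient of variation of a member was 11.3% in KYSE70 and 13.7% in NRF2null-KYSE70, which limits the small changes that can be seen.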

Other observations

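Among 23 long non-coding RNAs with names of their own, 20 were tested, 7 were lower and 5 higher by adjusted p, and 2 lower and 1 higher also passed the fold threshold. Among all genes tested 57.6% passed the adjusted p and 14.7% both thresholds, so the counts of this list were near the background. The RNAs below are named after their values were seen. LUCAT1, first described as induced by cigarette smoke, was at 381, 351 and 390.2 normalized counts in KYSE70 and 63.9, 51.0 and 81.1 in NRF2null-KYSE70 (log2 fold change -2.52, limma, adjusted p = 1.59e-07). HOTAIR, a transcript of the HOXC cluster, was at 215, 173 and 169.8 in KYSE70 and 87.2, 84.3 and 81.1 in NRF2null-KYSE70 (log2 fold change -1.13, limma, adjusted p = 1.37e-04). UCA1, a bladder cancer transcript, was at 0, 0 and 2.11 in KYSE70, at the floor of detection, and at 115, 70.6 and 95.9 in NRF2null-KYSE70 (limma, adjusted p = 2.31e-06). MALAT1 and TUG1, abundant nuclear RNAs, had log2 fold changes of 0.08 and 0.05 and did not pass the adjusted p, whereas NEAT1, the scaffold of paraspeckles, fell from 5767 to 3812 (log2 fold change -0.60, limma, adjusted p = 8.09e-07).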
